A study of Mus musculus with 9 samples.

Results

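Aminoacyl-tRNA synthetase genes were followed in RNA-seq data of RAW264.7 macrophages, a mouse macrophage line from an Abelson leukemia virus-induced tumor of a male mouse. The members are named by gene symbol in a list drawn up with earlier results of these data known, by a rule that uses no measured value, and 35 genes of the 55401 in the expression table were found, of which 19 encode cytosolic and 16 encode mitochondrial enzymes. All cells were wild type and had received DMSO, the solvent, alone in the DMSO group, DMSO with lipopolysaccharide (LPS, from the wall of gram-negative bacteria, used to drive M1 polarization) in the LPS group, or LPS with skatole, an indole compound formed from tryptophan by gut bacteria, in the LPS + Ska group. The labels give a treatment of 24 h, 3 groups and 3 samples in each, numbered 5, 6 and 7, and do not say whether these were separate cultures, so p-values measure only the spread between these samples. The line is a single transformed macrophage line grown alone, so the values concern that line.

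Aminoacyl-tRNA synthetases join each amino acid to its tRNA and so supply the ribosome with charged tRNA. Mammalian cells keep nuclear genes for a cytosolic set and for a mitochondrial set that serves the translation of respiratory chain subunits, and several cytosolic enzymes are held with scaffold proteins in a multi-synthetase complex. In many cell types, cytosolic synthetase genes belong to the amino acid response, in which the transcription factor ATF4 binds C/EBP-ATF response elements. WARS, the tryptophanyl enzyme, is also known as an interferon-gamma-induced protein.

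The core of that element, TGATGNAA on either strand, was searched in promoters of 250 bases before to 50 bases after the RefSeq start site (GRCm38.p6), and 26 of the 35 members had such a promoter entry. The 9 members without an entry, most of them cytosolic, were Cars, Hars, Lars, Nars, Rars, Vars, Wars, Hars2 and Pars2. The core was found in 5 members, all of them cytosolic, and in 3.97% of 32851 promoter entries. A member was counted if any of its entries held the core, so the count and the share have different units. Windows are shown for these 5 members to illustrate the motif, 1 for each, with the motif in capitals and 10 bases on each side, 5′ to 3′ on the strand of the gene.
Gars (glycyl), chr6:55037961-55037988, plus strand: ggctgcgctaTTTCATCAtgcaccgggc
Iars (isoleucyl), chr13:49682127-49682154, plus strand: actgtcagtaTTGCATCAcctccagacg
Tars (threonyl), chr15:11399656-11399683, minus strand: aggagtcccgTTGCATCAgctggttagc
Yars (tyrosyl), chr4:129189896-129189923, plus strand: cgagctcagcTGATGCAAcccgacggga
Aars (alanyl), chr8:111033841-111033868, plus strand: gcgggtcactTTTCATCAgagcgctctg

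The core of the interferon-stimulated response element (GAAA repeats with 2 bases between them) was present on either strand in the promoter of Qars (glutaminyl) among the members and in 3.44% of all promoters. TTCNNNGAA, the palindromic STAT site, was present in those of Aars, Kars (lysyl) and Nars2 (mitochondrial asparaginyl) and in 8.30% of all promoters. In Aars, the STAT motif did not overlap the window shown above. Wars had no promoter entry.

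The values were TPM, transcript abundances that are scaled per transcript length and sum to the same total in every sample, so the sequencing depth is unknown and no counting error can be given. In the LPS and LPS + Ska groups, the value of replicate 5 lay exactly midway between those of replicates 6 and 7 for all genes with both above 0, within 1e-05 TPM. In the DMSO group this holds for at most 0.0614% of genes. These groups therefore contain at most 2 independent values per gene, and values recovered from the columns were used as an alternative to the deposited ones. All 9 macrophage markers were detected in each sample. The 10 markers of other cell types summed to at most 0.554 TPM per sample, with Cd3e and Epcam listed at 0 throughout. Nos2, the inducible nitric oxide synthase, was listed at 0 TPM in the DMSO samples and lay between 36.2 and 38.8 TPM in the LPS samples. A gene was called changed at a limma adjusted p below 0.05 with a fold change above 1.5 or below 0.67, on the log2(TPM + 1) scale, and fold changes of low genes are understated on this scale. All 35 members passed the filter of a mean TPM of at least 1. Of the 9 macrophage markers, 3 were called lower in LPS vs DMSO (Csf1r, Lyz2 and Spi1) and 0 higher, beside 20.0% and 12.7% of all genes. In LPS + Ska vs LPS, Lyz2 was called higher and Fcgr1 lower, beside 3.35% and 6.14% of all genes. The part of these marker changes in the results was not tested.

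Cytosolic synthetase genes were expressed at higher TPM than mitochondrial ones. In the DMSO group, mean TPM among the cytosolic members ranged from 64.6 ± 4.24 (SD, n = 3) for Cars, the cysteinyl enzyme, to 263 ± 7.18 for Vars, the valyl enzyme. Among the mitochondrial members it ranged from 4.49 ± 0.673 for Pars2 (prolyl) to 90.8 ± 10.7 for Lars2 (leucyl). The 19 cytosolic genes summed to 2526, 2594 and 2731 TPM in the DMSO samples, 3133, 3125 and 3140 TPM in the LPS samples, and 2798, 2827 and 2769 TPM in the LPS + Ska samples. The sums did not overlap between any of the groups and were highest in LPS. The 16 mitochondrial genes summed to 512, 495 and 494 TPM in DMSO, 399, 402 and 396 TPM in LPS, and 417, 404 and 431 TPM in LPS + Ska. These sums were highest in DMSO, and without Lars2 the order of the LPS and LPS + Ska groups was turned, with 353, 361 and 345 TPM in LPS and 324, 328 and 320 TPM in LPS + Ska. The ratio of the cytosolic to the mitochondrial sum was 4.94 to 5.53 in DMSO, 7.78 to 7.93 in LPS and 6.42 to 7.01 in LPS + Ska. Without Lars2 it was 6.14 to 6.59, 8.65 to 9.11 and 8.62 to 8.66, so the LPS and LPS + Ska groups were separated in this ratio only with Lars2 in the sum. In bulk samples, a lower level in every cell and fewer cells with the transcript cannot be told apart.

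**Figure D1:**
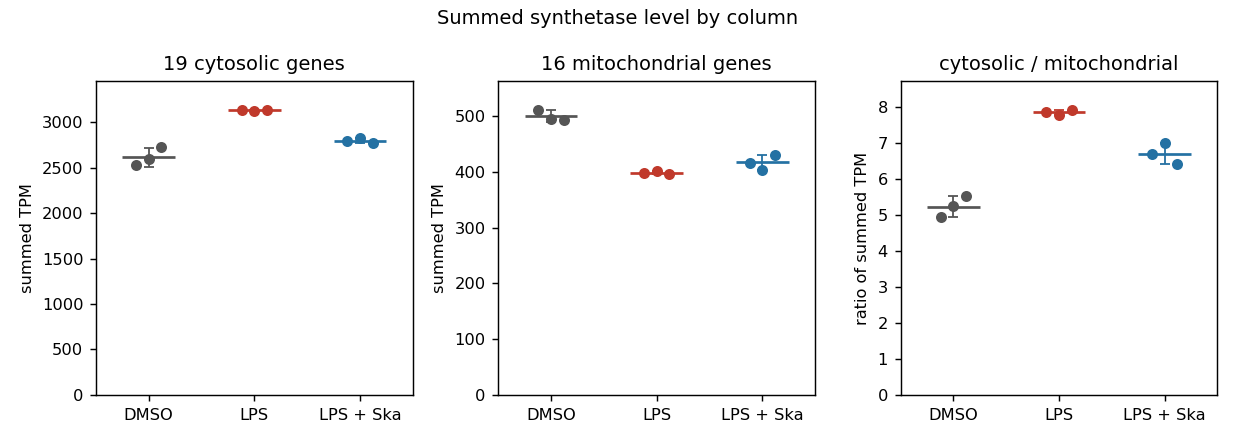
Summed TPM of the 19 cytosolic and of the 16 mitochondrial synthetase genes, and the ratio of these sums, for each sample of the DMSO, LPS and LPS + Ska groups (points; the line is the mean of 3 columns and the bar the SD). The cytosolic sum is highest in LPS (3125 to 3140 TPM) and the mitochondrial sum is highest in DMSO (494 to 512 TPM), so the ratio is highest in LPS.

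LPS and DMSO samples were compared to ask how M1 induction changed this gene family. The log2 fold change was above 0 in 14 of the 19 cytosolic members and below 0 in 10 of the 16 mitochondrial members (15 and 9 with median-ratio scaling), beside 5828 genes above and 6991 below 0 among all 12819 tested. In all, 9 of the 35 members were called, and 32.7% of the genes tested were. Of the 19 cytosolic members, 3 were called higher, with Farsb, Dars and Gars at 1.53 to 1.59-fold, and 1 was called lower, Farsa at 0.61-fold. Among all genes tested, 12.7% were called higher and 20.0% lower. By the adjusted p alone, 10 cytosolic members were higher and 3 were lower, against 26.2% and 34.2% of all genes. The median log2 fold change of the cytosolic members was 0.29, and that of all genes was -0.07; with median-ratio scaling they were 0.38 and 0.01. Of the 35 members, 25 had samples that did not overlap between these groups, as had 68.9% of all genes tested.

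**Figure D2:**
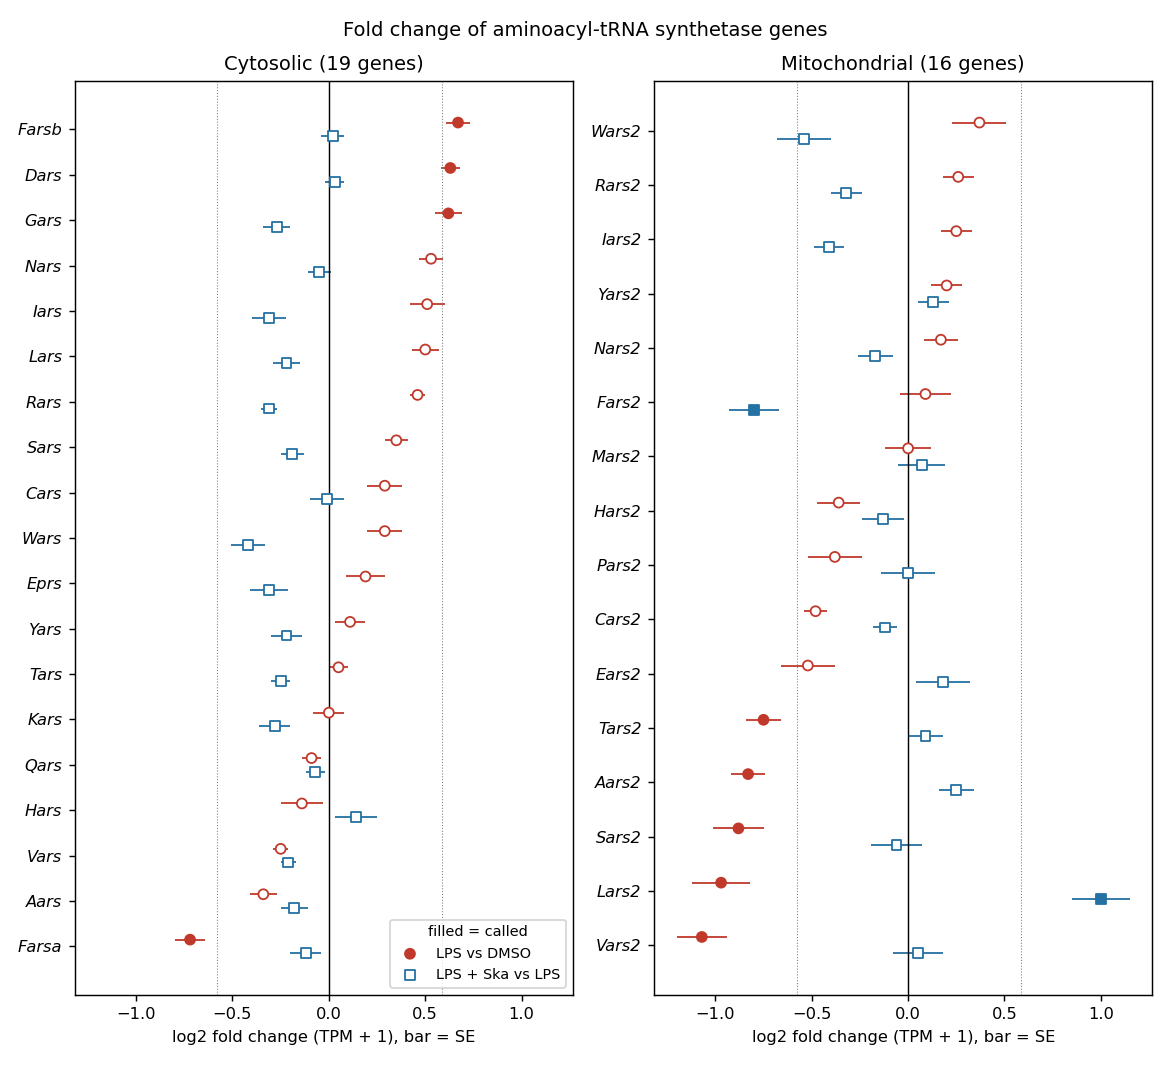
Log2 fold change (log2 of TPM + 1) of each cytosolic and mitochondrial synthetase gene in LPS vs DMSO (red circles) and LPS + Ska vs LPS (blue squares), with the SE of the fit as bars; filled symbols are called genes and dotted lines mark the fold limits of 1.5 and 0.67. In LPS vs DMSO, 14 of 19 cytosolic members lie above 0 and 10 of 16 mitochondrial members lie below 0 (15 and 9 with median-ratio scaling); both comparisons share the LPS samples.

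Among the 7 members known as parts of the multi-synthetase complex, 4 passed the adjusted p as higher in LPS and 1 was called higher, beside 26.2% and 12.7% of all genes. Dars, the aspartyl enzyme, was at 160.4, 160.3 and 167 TPM in DMSO and at 253, 249.5 and 256 TPM in LPS. Its samples were well separated between the groups, with a log2 fold change of 0.63 (SE 0.05, limma adjusted p = 1.3e-05). Rars, the arginyl enzyme, was at 185, 184 and 186 TPM in DMSO and at 255, 255 and 256 TPM in LPS, with little spread within groups. Its log2 fold change was 0.46 (SE 0.04, limma adjusted p = 1.4e-05) and lay below the fold limit. Iars and Lars, for isoleucine and leucine, rose by 0.51 and 0.50 on the log2 scale (SE 0.09 and 0.07, limma adjusted p = 7.2e-04 and 2.2e-04). Eprs, which charges both glutamate and proline, had a log2 fold change of 0.19 (SE 0.10, limma adjusted p = 0.11), and its samples overlapped between the groups. Kars and Qars gave log2 fold changes of 0.00 and -0.09, with limma adjusted p values of 0.96 and 0.18.

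Of the 12 cytosolic members outside the complex, 6 passed the adjusted p as higher and 3 as lower in LPS, beside 26.2% and 34.2% of all genes. Nars, the asparaginyl enzyme, was the most abundant synthetase gene in LPS. It was at 232, 249 and 269.6 TPM in DMSO and at 362, 359 and 364 TPM in LPS, a log2 fold change of 0.53 (SE 0.06, limma adjusted p = 4.2e-05). Gars, whose gene supplies glycyl-tRNA synthetase to both cytosol and mitochondria, was at 175, 181 and 207 TPM in DMSO and at 288, 299.6 and 276 TPM in LPS. Every LPS sample was above every DMSO sample, and the log2 fold change was 0.62 (SE 0.07, limma adjusted p = 4.4e-05), which fell to 0.57 and below the fold limit without DMSO replicate 5. Sars (seryl) and Cars rose by 0.35 and 0.29 on the log2 scale (SE 0.06 and 0.09, limma adjusted p = 8.7e-04 and 0.016). Vars and Aars were lower in LPS, with log2 fold changes of -0.25 and -0.34 (SE 0.04 and 0.07, limma adjusted p = 8.7e-04 and 0.0029). Hars (histidyl), Tars and Yars had log2 fold changes of -0.14, 0.05 and 0.11, none of which passed the adjusted p. Of the 5 members with the response element core, Gars and Iars rose, Aars fell, and Tars and Yars did not pass the test.

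The family members Farsa and Farsb moved in opposite directions. They encode the alpha and beta subunits of cytosolic phenylalanyl-tRNA synthetase, an enzyme that contains both in equal number. Farsa (chr8:84856989-84869257 on GRCm38, plus strand) was at 125, 141 and 129 TPM in DMSO and at 79.3, 76.2 and 82.4 TPM in LPS. Farsb (chr1:78417975-78488897, minus strand) was at 132, 129.8 and 143 TPM in DMSO and at 215, 219 and 211 TPM in LPS. The samples did not overlap for either gene. Farsa fell by 0.72 on the log2 scale (SE 0.08, limma adjusted p = 5.7e-05), and Farsb rose by 0.67 (SE 0.06, limma adjusted p = 1.4e-05). In the LPS + Ska samples, Farsa was at 72.9, 65.6 and 80.2 TPM and Farsb at 218, 231 and 205 TPM. The Farsa to Farsb ratio of TPM was 0.943, 1.09 and 0.904 in DMSO, 0.368, 0.348 and 0.390 in LPS, and 0.334, 0.283 and 0.392 in LPS + Ska. The transcripts of the 2 subunits were thus near equal in DMSO and unequal in every LPS-treated sample. The 4 calls of these genes against DMSO held under each of the 19 alternatives tried.

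**Figure D3:**
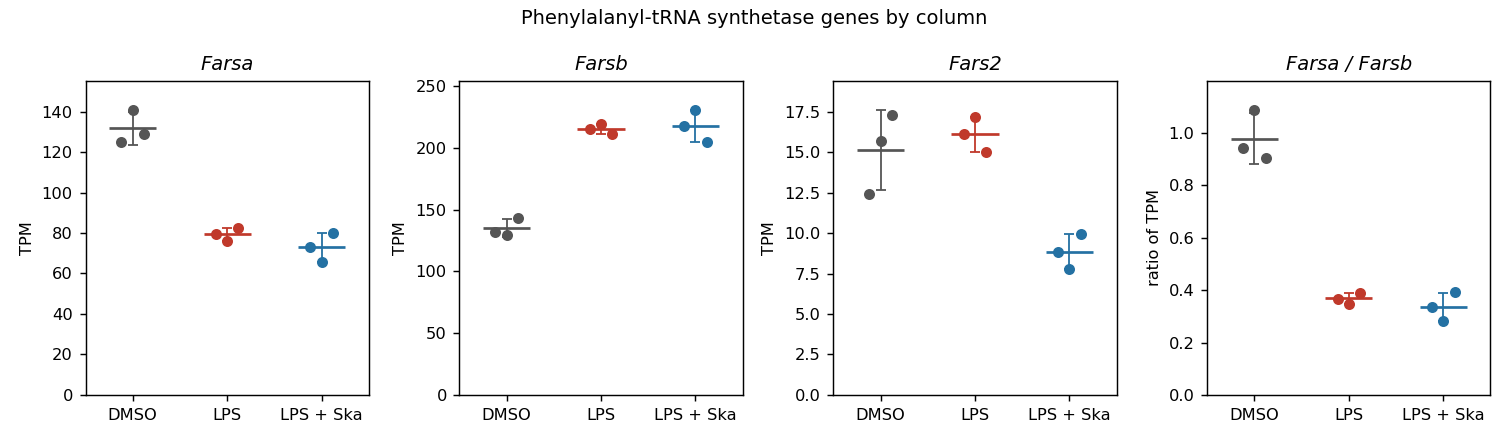
TPM of Farsa and Farsb (subunits of the cytosolic phenylalanyl enzyme) and of Fars2 (the mitochondrial enzyme), and the Farsa to Farsb ratio, for each sample of the 3 groups (points; the line is the mean of 3 columns and the bar the SD). Farsa is lower and Farsb higher in both LPS-treated groups than in DMSO, while Fars2 is lowest in LPS + Ska (7.77 to 9.95 TPM).

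Of the 16 mitochondrial members, none was called higher in LPS by limma and 5 were called lower, against 12.7% and 20.0% of all genes. By the adjusted p alone, 3 were higher and 9 were lower, against 26.2% and 34.2% of all genes. By the unadjusted p, 4 were higher and 9 lower, beside 3606 higher and 4659 lower of all 12819 genes tested. The median log2 fold change of the 16 members was -0.37, and -0.28 with median-ratio scaling. Vars2, the mitochondrial valyl enzyme (chr17:35655634-35667592, minus strand), was at 20.1, 15.2 and 17.4 TPM in DMSO and at 7.79, 7.87 and 7.71 TPM in LPS, and fell by 1.07 on the log2 scale (SE 0.13, limma adjusted p = 8.2e-05). Sars2, the seryl enzyme, was at 31.8, 25.8 and 27.4 TPM in DMSO and at 15.0, 12.2 and 17.8 TPM in LPS, a log2 fold change of -0.88 (SE 0.13, limma adjusted p = 3.0e-04). The lowest DMSO sample of both genes was above the highest LPS sample.

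Aars2 (alanyl) was at 11.0, 9.37 and 10.8 TPM in DMSO and at 5.39, 5.40 and 5.39 TPM in LPS, a log2 fold change of -0.83 (SE 0.09, limma adjusted p = 5.6e-05). Tars2 (threonyl) was at 75.1, 65.7 and 74.9 TPM in DMSO and at 42.4, 45.7 and 39.1 TPM in LPS, and fell by 0.75 on the log2 scale (SE 0.09, limma adjusted p = 6.9e-05). Neither gene overlapped between the groups. Lars2, the fifth call, is described with the skatole comparison, in which it also changed. Cars2 (cysteinyl), Ears2 (glutamyl), Hars2 (histidyl) and Pars2 passed the adjusted p with log2 fold changes of -0.48, -0.52, -0.36 and -0.38, of which Pars2 overlapped between the groups and missed the threshold with the recovered values.

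The 3 mitochondrial members that passed the adjusted p as higher in LPS were Wars2 (tryptophanyl), Rars2 (arginyl) and Iars2 (isoleucyl), at log2 fold changes of 0.37, 0.26 and 0.25. Yars2 (tyrosyl) and Nars2 had values of 0.20 and 0.17 that did not pass (limma adjusted p = 0.051 and 0.11). Mars2 (methionyl) and Fars2 had values of 0.00 and 0.09. Wars2, Rars2 and Iars2 were not called, and their highest limma adjusted p values over the alternatives were 0.15, 0.072 and 0.12. By the adjusted p in the main fit, the mitochondrial genes thus moved in both directions, with calls on the lower side only.

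**Figure D4:**
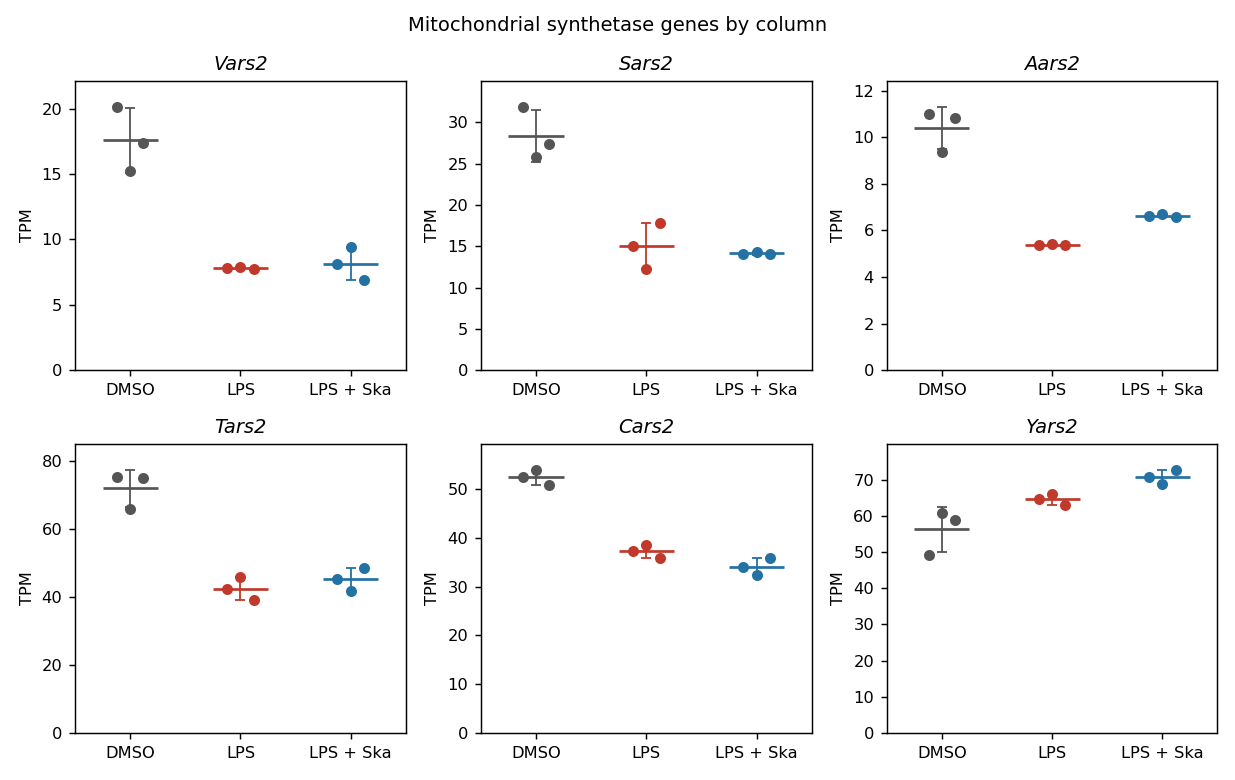
TPM of 6 mitochondrial synthetase genes in each sample of the DMSO, LPS and LPS + Ska groups (points; the line is the mean of 3 columns and the bar the SD). Vars2, Sars2, Aars2, Tars2 and Cars2 are lower in every LPS-treated sample than in any DMSO sample, whereas Yars2 is highest in LPS + Ska (68.9 to 72.7 TPM).

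Cytosolic and mitochondrial members for the same amino acid were set side by side in 14 pairs, with Farsa and Farsb each paired with Fars2. In LPS vs DMSO, the log2 fold change of the mitochondrial member was below that of the cytosolic one in 11 of 14 pairs. The difference was -1.47 for leucyl (Lars and Lars2), -1.23 for seryl (Sars and Sars2), -0.82 for valyl and -0.80 for threonyl enzymes. It was 0.82 for Farsa and Fars2, where the cytosolic member fell, and -0.58 for Farsb and Fars2. The ratio of Sars to Sars2 TPM was 4.14 to 5.04 in DMSO and 9.78 to 13.5 in LPS, and that of Vars to Vars2 was 13.5 to 17.2 and 27.7 to 29.0. Both ratios were separated between the groups. The tryptophanyl pair was at 6.89 to 10.8 in DMSO and 6.85 to 8.18 in LPS, and the tyrosyl pair at 1.54 to 1.84 and 1.55 to 1.66, so these overlapped. No test was run on the differences within pairs.

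The LPS + Ska and LPS samples were compared to ask what skatole changed in LPS-treated cells. Here 2 of the 35 members were called, against 9.49% of all genes. Both were mitochondrial, with Lars2 higher and Fars2 lower, and 3.35% of all genes were called higher and 6.14% lower. None of the 19 cytosolic members was called by limma. By the adjusted p alone, 10 of these were lower and 0 higher, against 19.7% and 8.89% of all genes. By the unadjusted p, 12 were lower and 0 higher, beside 3569 lower and 1625 higher of all 12819 genes tested. The count by adjusted p was 5 lower with the recovered values. It was 2 lower and 1 higher with median-ratio scaling, which moved the median of all genes by 0.10 from -0.10 to 0.00. The median of the cytosolic members was -0.21, and -0.11 with that scaling. The samples of 22 of the 35 members, and of 51.2% of all genes, did not overlap between the groups.

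Wars had the largest change of the cytosolic members. It was at 95.9, 96.2 and 120.3 TPM in DMSO, 127, 137 and 118 TPM in LPS, and 94.9, 99.4 and 90.4 TPM in LPS + Ska. The LPS + Ska samples were all below the LPS samples, while the DMSO and LPS samples overlapped. The log2 fold change was -0.42 for LPS + Ska vs LPS (SE 0.09, limma adjusted p = 0.011) and 0.29 for LPS vs DMSO (SE 0.09, limma adjusted p = 0.023). Rars was at 205, 208 and 203 TPM in LPS + Ska and was lower by a log2 fold change of -0.31 (SE 0.04, limma adjusted p = 8.0e-04). Gars was at 238, 241 and 235 TPM, a log2 fold change of -0.27 (SE 0.07, limma adjusted p = 0.014, between 0.004 and 0.062 over the alternatives). Iars, Eprs, Kars, Tars, Lars, Vars and Sars also passed the adjusted p, with log2 fold changes between -0.31 and -0.19. With the recovered values, Eprs, Kars, Lars and Sars missed the threshold (limma adjusted p = 0.055, 0.054, 0.065 and 0.087). With median-ratio scaling, all of Iars, Eprs, Kars, Tars, Lars, Vars and Sars missed it (limma adjusted p between 0.053 and 0.39). In the main fit, Dars and Farsb were at 0.03 and 0.02, and Nars at -0.05, with adjusted p values of 0.72, 0.85 and 0.57.

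With median-ratio scaling, the log2 fold changes of Wars, Rars and Gars were -0.32, -0.21 and -0.17, and those of Dars and Farsb were 0.13 and 0.12. The values of all members move up together under this scaling.

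Lars2 (chr9:123366927-123462666, plus strand) was the only synthetase gene called in both comparisons that involve the LPS group. It was at 100.5, 92.5 and 79.3 TPM in DMSO, 45.9, 40.4 and 51.3 TPM in LPS, and 93.6, 75.7 and 111 TPM in LPS + Ska. All LPS samples were below all others, and the DMSO and LPS + Ska samples overlapped. The log2 fold change was -0.97 in LPS vs DMSO (SE 0.15, limma adjusted p = 3.6e-04), 1.00 in LPS + Ska vs LPS (SE 0.15, limma adjusted p = 0.0014) and 0.03 in LPS + Ska vs DMSO (limma adjusted p = 0.86). These comparisons share the LPS samples, and both calls held under each of the 19 alternatives. Lars, its cytosolic counterpart, had log2 fold changes of 0.50 and -0.22 in the first 2 of these comparisons, so the Lars to Lars2 ratio was 1.05 to 1.42 in DMSO, 2.97 to 3.92 in LPS and 1.08 to 1.93 in LPS + Ska.

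A ribosomal RNA gene moved with Lars2 and is named after its values were seen. CT010467.1, on chromosome 17, was at 2474, 2223 and 1469 TPM in DMSO, 625, 598 and 651 TPM in LPS, and 1332, 924 and 1740 TPM in LPS + Ska, and it made up most of the summed TPM of the 354 nuclear ribosomal RNA genes in the table. Its log2 fold change was -1.68 in LPS vs DMSO and 1.04 in LPS + Ska vs LPS (limma adjusted p = 2.2e-04 and 0.01). In a BLAST search at an E value limit of 1e-10, the annotated transcripts of 0 of the 35 members matched this gene. The whole ribosomal RNA repeat was not searched, so the result covers this gene alone. The part of ribosomal RNA in the Lars2 values was not tested beyond this search.

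**Figure D5:**
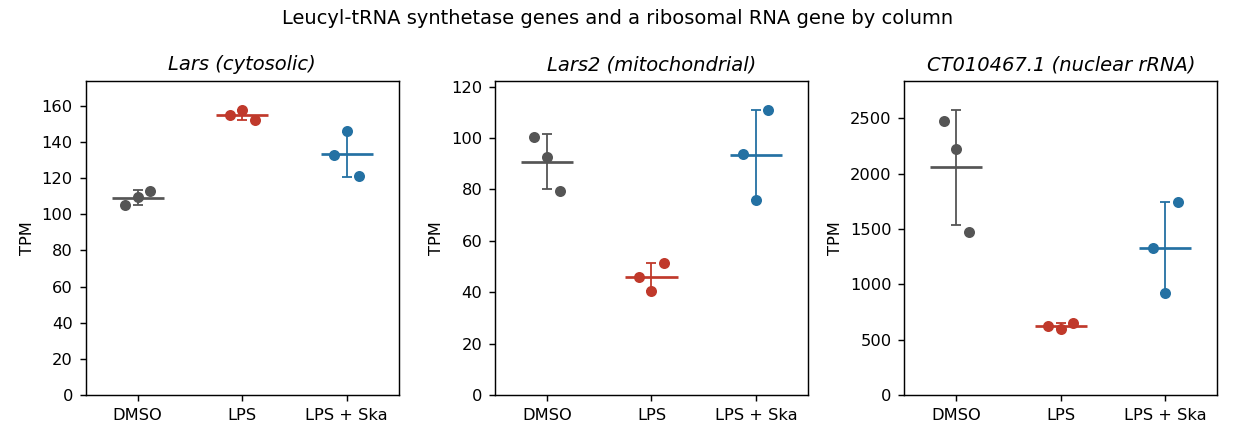
TPM of Lars (cytosolic), Lars2 (mitochondrial) and the ribosomal RNA gene CT010467.1 in each sample of the 3 groups (points; the line is the mean of 3 columns and the bar the SD). Lars2 and CT010467.1 are both lowest in LPS (40.4 to 51.3 and 598 to 651 TPM), where Lars is highest.

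Fars2, the mitochondrial phenylalanyl enzyme (chr13:36117412-36726280, plus strand), was the only synthetase gene called lower in LPS + Ska vs LPS. It was at 12.4, 15.7 and 17.3 TPM in DMSO, 16.1, 17.2 and 15.0 TPM in LPS, and 8.86, 7.77 and 9.95 TPM in LPS + Ska. The LPS + Ska samples were below all others, and the DMSO and LPS samples overlapped. The log2 fold change was -0.80 (SE 0.13, limma adjusted p = 0.0025, between 0.0014 and 0.015 over the alternatives), and it was -0.70 with median-ratio scaling. Exons of Lyrm4 overlap Fars2 on the other strand, and whether strand was used in counting is not given in the sources used here. Lyrm4 was at 23.1, 24.6 and 21.7 TPM in LPS and 24.1, 26.3 and 22.0 TPM in LPS + Ska, a log2 fold change of 0.06 (limma adjusted p = 0.75). The Lyrm4 samples overlapped between these groups. In LPS vs DMSO and LPS + Ska vs DMSO, Lyrm4 had log2 fold changes of 0.94 and 1.00 (limma adjusted p = 1.2e-04 and 7.3e-05). Its part in the Fars2 values was not tested.

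Among the other mitochondrial members, Wars2, Iars2 and Rars2 passed the adjusted p as lower in LPS + Ska vs LPS, with log2 fold changes of -0.54, -0.41 and -0.32. Rars2 missed the threshold with the recovered values and with median-ratio scaling (limma adjusted p between 0.0081 and 0.068 over the alternatives). Wars2 was at 17.0 ± 0.278 TPM in LPS and at 11.5 ± 2.49 TPM in LPS + Ska (mean and SD of 3 columns each). Its samples were separated between these groups. Rab3gap2, which overlaps Iars2 on the other strand, was lower as well (log2 fold change -0.31, limma adjusted p = 0.0074), and its part in the Iars2 values was not tested. Vars2, Sars2 and Tars2, called lower in LPS, had log2 fold changes of 0.05, -0.06 and 0.09 in LPS + Ska vs LPS. Their samples overlapped between LPS and LPS + Ska. Aars2 was at 6.63, 6.71 and 6.56 TPM in LPS + Ska, above its LPS samples, with a log2 fold change of 0.25 that did not pass (SE 0.09, limma adjusted p = 0.067).

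LPS + Ska and DMSO samples were compared to see where the family lay against cells without LPS. Dars and Farsb were called higher at 1.58 and 1.61-fold and Farsa lower at 0.56-fold among the 19 cytosolic members, against 11.4% of all genes higher and 25.3% lower, or 36.7% in either direction. By the adjusted p alone, 8 were higher and 6 lower, against 22.7% and 40.6% of all genes. The median of the cytosolic members was 0.00, and 0.19 with median-ratio scaling, while that of all genes was -0.18 and 0.00. Of the mitochondrial members, 5 were called lower, Vars2, Sars2, Fars2, Tars2 and Cars2, with log2 fold changes of -1.02, -0.95, -0.70, -0.66 and -0.60. With median-ratio scaling, 2 of these calls held, Vars2 and Sars2, and those of Fars2, Tars2 and Cars2 did not reach the fold limit. Cars2 was at 52.4, 53.9 and 50.9 TPM in DMSO, 37.2, 38.5 and 35.9 TPM in LPS, and 34.1, 32.4 and 35.8 TPM in LPS + Ska. Every LPS-treated sample of Cars2 was below every DMSO sample. Naxd, which overlaps Cars2 on the other strand, had log2 fold changes of -0.89 in LPS vs DMSO and -1.16 in LPS + Ska vs DMSO (limma adjusted p = 4.9e-06 and 8.7e-07), and its part in the Cars2 values was not tested.

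Yars2 was at 49.1, 60.8 and 58.9 TPM in DMSO, 64.6, 66.0 and 63.1 TPM in LPS, and 70.8, 68.9 and 72.7 TPM in LPS + Ska. It was the mitochondrial member that passed the adjusted p as higher in LPS + Ska vs DMSO, at a log2 fold change of 0.33 (SE 0.08, limma adjusted p = 0.0048). Aars2 was lower than in DMSO by a log2 fold change of -0.58 (SE 0.09, limma adjusted p = 4.7e-04), at the fold limit. Of the 35 members, 24 did not overlap between LPS + Ska and DMSO, beside 64.8% of all genes.

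All 3 scaffold genes of the multi-synthetase complex passed the adjusted p as higher in LPS vs DMSO, and 1 was called higher. Over all genes tested, these shares were 26.2% and 12.7%. Aimp1, Aimp2 and Eef1e1 (AIMP3) rose by 0.41, 0.57 and 1.08 on the log2 scale (limma adjusted p = 1.1e-04, 3.8e-04 and 3.0e-07). Eef1e1, which was called, was at 66.0, 70.5 and 66.8 TPM in DMSO, 144, 146 and 142 TPM in LPS, and 144, 148 and 139 TPM in LPS + Ska. The LPS and LPS + Ska samples of Eef1e1 overlapped. None of the 3 scaffold genes was called by limma in LPS + Ska vs LPS, where Aimp1 passed the adjusted p at -0.17. By the unadjusted p, 0 of the 3 were higher and 1 was lower, beside 1625 and 3569 of all 12819 genes tested.

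Of the 6 genes for editing of mischarged tRNA and tRNA recycling, 2 were called lower in LPS vs DMSO, beside 20.0% of all genes. None was called by limma in LPS + Ska vs LPS. There the unadjusted p counted 2 higher and 2 lower, beside 1625 and 3569 of all 12819 genes tested. Aarsd1, an alanyl-tRNA editing enzyme, was at 73.4, 95.8 and 91.1 TPM in DMSO and 47.4, 57.3 and 37.5 TPM in LPS, a log2 fold change of -0.87 (SE 0.16, limma adjusted p = 0.0013). Prorsd1, a prolyl-tRNA editing homolog, was at 26.4, 27.1 and 25.6 TPM in LPS and 36.7, 35.4 and 38.1 TPM in LPS + Ska, a log2 fold change of 0.46 (SE 0.07, limma adjusted p = 0.0018). Of the 6 cytosolic elongation factor genes, none was called by limma in LPS vs DMSO or LPS + Ska vs LPS. By the unadjusted p, 2 were higher and 2 lower in LPS vs DMSO, beside 3606 and 4659 of all 12819 genes tested. In LPS + Ska vs LPS, 0 were higher and 5 lower, beside 1625 and 3569. Of these factors, Eef2 had the largest change with skatole, from 1807, 1788 and 1827 TPM in LPS to 1267, 1238 and 1296 TPM. Its log2 fold change was -0.51 (SE 0.05, limma adjusted p = 1.3e-04). Among 14 genes for mitochondrial tRNA charging and translation factors, none was called by limma in these comparisons. The unadjusted p counted 3 higher and 3 lower, and 0 higher and 3 lower, beside the counts over all genes just given. The median log2 fold change of these 14 genes in LPS was -0.04, beside -0.37 for the mitochondrial synthetases. Tufm, the mitochondrial elongation factor Tu, was lower in LPS at -0.58 (SE 0.12, limma adjusted p = 0.0025), while Ptcd3, a mitochondrial ribosome protein, was higher at 0.49 (SE 0.09, limma adjusted p = 8.1e-04).

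The amino acid response list held 28 genes, of which 27 were tested. In LPS vs DMSO, 8 were called higher and 1 was called lower, beside 12.7% and 20.0% of all genes. By the adjusted p alone, 13 were higher and 5 lower, beside 26.2% and 34.2%. The gene called lower was Atf3, a stress-induced transcription factor, at 92.5, 104 and 151 TPM in DMSO and 11.7 TPM in each LPS sample, a log2 fold change of -3.17 (SE 0.15, limma adjusted p = 3.8e-07). Asns, asparagine synthetase, was at 140.4, 141 and 146 TPM in DMSO and at 257, 255 and 259 TPM in LPS, a log2 fold change of 0.85 (SE 0.04, limma adjusted p = 4.5e-07). Atf4 itself was at 477, 472 and 529 TPM in DMSO, 456, 426 and 486 TPM in LPS, and 383, 317 and 448 TPM in LPS + Ska. Its samples overlapped between DMSO and LPS and between LPS and LPS + Ska, with log2 fold changes of -0.11 and -0.26 (limma adjusted p = 0.42 and 0.11). In LPS + Ska vs DMSO its samples did not overlap, and the log2 fold change was -0.38 (SE 0.11, limma adjusted p = 0.015). With median-ratio scaling, that value was -0.18 (limma adjusted p = 0.23). The Atf4 transcript level does not measure the ATF4 protein, which is known to be set largely at translation.

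In LPS + Ska vs LPS, 1 gene of the list was called higher and 1 lower, beside 3.35% and 6.14% of all genes. Slc7a11, the cystine transporter subunit, was at 5.65, 6.47 and 8.08 TPM in DMSO, 27.8, 27.1 and 28.5 TPM in LPS, and 72.2, 81.0 and 63.4 TPM in LPS + Ska, a log2 fold change of 1.34 with skatole (SE 0.12, limma adjusted p = 1.4e-04). Pycr1, which makes proline in mitochondria, was at 5.33, 6.16 and 4.51 TPM in LPS and 2.04, 2.08 and 1.99 TPM in LPS + Ska, a log2 fold change of -1.05 (SE 0.16, limma adjusted p = 0.0017). Both were separated between the groups. Cth, which makes cysteine from cystathionine, had the largest rise of the list in LPS, 2.17 on the log2 scale (limma adjusted p = 1.4e-07), and with skatole passed the adjusted p at -0.52 (SE 0.09, limma adjusted p = 0.0031).

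Of the 6 interferon-gamma and NF-kB responsive genes set beside Wars, 3 were tested. Cxcl10, an interferon-inducible chemokine, was at 10.1, 7.11 and 7.44 TPM in DMSO, 40.0, 37.9 and 42.1 TPM in LPS, and 13.6, 17.2 and 10.0 TPM in LPS + Ska. The LPS samples were above all others. It had log2 fold changes of 2.17 in LPS vs DMSO and -1.52 in LPS + Ska vs LPS (limma adjusted p = 9.2e-06 and 5.3e-04). Irf1, another interferon-responsive factor, was lower in both, at -0.56 and -0.32. Wars, at 0.29 and -0.42, changed less than Cxcl10 on this scale, and no test was run on that difference.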

How the data were processed

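RNA-seq of RAW264.7 cells treated with DMSO, LPS or LPS + Ska was analysed in 3 samples each. The labels give a treatment of 24 h, as does the results text of the study, whereas its methods section gives another time. The authors deposited TPM values for 55401 genes by Ensembl identifier. Submitters' processing notes list fastp 0.20.1, HISAT2 2.2.1, StringTie 2.0 and mm10, and the strand setting is not given in the sources used here. Symbols were found for 55141 identifiers. Members and gene lists were chosen with earlier results of these data known, and every member could be named, with full values for the called ones and, from the other lists, values for Atf4 and for up to 4 genes with the largest change in LPS + Ska vs LPS. Asns, Atf3, Ptcd3, Csf1r and Spi1 were named outside this rule, after their values were seen.

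The log2(TPM + 1) values of all 9 columns were fitted with limma 3.58.1 in R 4.3.3 (lmFit, eBayes with an intensity trend) for the 12819 genes whose mean was 1 TPM or more, with Benjamini-Hochberg adjustment over all of them. The fit was also run on simulated data, and the outcome is not reported here. Recovered values of the tied groups were replicate 5 plus and minus 0.5 times the difference to replicate 6. Alternatives were these values, median-ratio scaling, another pseudocount (0.1), other filters (none, or a mean of 5 TPM), rescaling without mitochondrial-genome and ribosomal protein genes, the compared groups alone, no intensity trend, removal of the trend on transcript length (loess, span 0.3), the adjusted p alone, each column left out and a replicate block. Between columns of the same number, deviations from the group mean correlated at 0.384, 0.151 and 0.128 between LPS and LPS + Ska, which are tied in the same form, and at -0.032 to 0.080 otherwise, so the numbers were not taken as pairs. Positions came from the GENCODE annotation of GRCm38, promoters from RefSeq, and BLAST 2.17.0 was used for the ribosomal RNA search. Plots used matplotlib 3.10.9 (Python 3.11.15). Some items are not reported here.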

Additional observations from a re-analysis of the deposited data

How the results depend on the processing

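Of the 19 member calls, 15 held under all 19 alternatives. Lost were Gars in LPS vs DMSO (without DMSO replicate 5), Fars2 and Tars2 in LPS + Ska vs DMSO (median-ratio scaling), and Cars2 in LPS + Ska vs DMSO (that scaling, the rescaling without mitochondrial-genome and ribosomal protein genes, and without LPS + Ska replicate 6). Median-ratio scaling called 6 cytosolic genes higher in LPS vs DMSO in place of 3, and 2 mitochondrial genes lower in LPS + Ska vs DMSO in place of 5. Over all genes it changed the calls higher and lower from 1630 and 2559 to 2006 and 2104 in LPS vs DMSO, from 429 and 787 to 599 and 540 in LPS + Ska vs LPS, and from 1457 and 3243 to 2214 and 2250 in LPS + Ska vs DMSO. A pseudocount of 0.1 called 2 mitochondrial genes lower in LPS + Ska vs LPS in place of 1. With the adjusted p alone, 10 cytosolic genes were higher and 3 lower in LPS vs DMSO, 10 were lower in LPS + Ska vs LPS, and 8 were higher and 6 lower in LPS + Ska vs DMSO. The mitochondrial counts were then 3 higher and 9 lower, 4 lower with skatole, and 1 higher and 8 lower in LPS + Ska vs DMSO.

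With each column left out, the cytosolic calls ranged from 2 to 4 higher and 1 to 1 lower in LPS vs DMSO, 0 to 0 in LPS + Ska vs LPS, and 2 to 2 higher and 1 to 2 lower in LPS + Ska vs DMSO, where 2 lower came without DMSO replicate 5. The mitochondrial calls lower ranged from 5 to 6, 1 to 2 and 5 to 6 in these comparisons, where 2 in LPS + Ska vs LPS came without LPS + Ska replicate 6. A replicate block changed none of the 105 member results, and pairing by number rests on the labels' numbers only. The recovered values kept every member on its side of the call. The mean TPM filter of at least 5 left 102 of the 105 results. The cause of these changes was not tested. The TPM scale keeps no depth, so no counting error could be set on low genes such as Pars2 and Mars2.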

Other observations

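Exosc6, an RNA exosome subunit gene that overlaps Aars on the same strand, was at 48.3, 5.10 and 2.41 TPM in the DMSO samples, 1.46, 1.86 and 1.05 TPM in LPS, and 6.95, 7.17 and 6.73 TPM in LPS + Ska. The DMSO replicates differed more in Exosc6 than in Aars, which was at 92.2, 104 and 108 TPM. Exons of 8 members overlapped those of a gene with a mean of at least 5 TPM. Hars and Hars2 overlap each other head to head, and Hars was at 93.2, 90.5 and 103 TPM in DMSO and 86.8, 76.5 and 97.1 TPM in LPS, while Hars2 was at 36.8, 33.3 and 34.9 TPM and 27.3, 31.3 and 23.3 TPM. The part of such overlaps in these values was not tested.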
